A study of Mus musculus with 6 samples.

Results

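Genes of MHC class II antigen presentation were examined in mouse lung after endotoxin. The 10 genes are those of the classical class II chains (H2-Aa, H2-Ab1, H2-Eb1), the DM chains (H2-DMa, H2-DMb1), the invariant chain (Cd74), the class II transactivator (Ciita), the co-stimulatory ligands Cd80 and Cd86, and the receptor Flt3. Each gene was found through its probes' accessions and represented by its brightest probe, taken by the mean signal of the 6 arrays. They are 10 of 22815 genes with a probe. All 10 were well above background on all 6 arrays, and they are among the 16362 genes tested. All animals were C57BL6 males, 10 weeks old, that were fasted for 16 h before LPS was given i.p. at 20 mg per kg. The saline group was then injected with saline and the rhTM group with recombinant human thrombomodulin, in both cases 3 h and 24 h after LPS. Lung RNA at 30 h of endotoxaemia was hybridised with 1 array per mouse, for 3 mice a group. Mice without LPS were not analysed here, so the values describe rhTM against saline within endotoxaemia and not the response to LPS.

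Class II molecules are pairs of an alpha and a beta chain that carry peptides from the endosome to the cell surface, where CD4+ T cells read them. The invariant chain escorts new pairs to the endosome and blocks their groove, and the DM pair then helps to exchange its last fragment for a peptide. Dendritic cells, B cells and macrophages are the main cells that carry class II. C57BL6 mice are known to lack a working H2-Ea gene, so H2-Eb1 in this strain is transcribed without a partner chain, and H2-Ea itself had no matched probe.

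The class II genes are known to share a promoter module, in which an X box and a Y box lie close together and are held by the RFX, CREB and NF-Y proteins that recruit CIITA. The promoter stretches of the 3 members with a Y box match are shown, and each also matched a part of the X box. This module is the feature that ties the chain genes to Ciita, and the choice of genes did not use it. The stretches are RefSeq sequences of GRCm38.p6, read 5′ to 3′ along the gene, with motif matches in capitals. The stretch of H2-Aa is chr17:34287852-34287912 on the minus strand, that of H2-Eb1 chr17:34305759-34305827 on the plus strand and that of H2-DMb1 chr17:34153080-34153149 on the plus strand.
H2-Aa: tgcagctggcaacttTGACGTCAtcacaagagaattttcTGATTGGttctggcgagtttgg
H2-Eb1: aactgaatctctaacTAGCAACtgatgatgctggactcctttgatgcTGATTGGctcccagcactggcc
H2-DMb1: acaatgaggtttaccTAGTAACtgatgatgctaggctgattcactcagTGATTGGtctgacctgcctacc
The Y box was searched as TGATTGG, the X1 part of the X box as TAGNAAC and the X2 part as TGACGTCA, on both strands of the 250 bases before the start. TGACGTCA reads the same on both strands, and no matches overlapped. The Y box began 50 bases before the start of H2-Aa, 61 before that of H2-Eb1 and 63 before that of H2-DMb1. H2-Eb1 and H2-DMb1 held the X1 letters 93 and 96 bases before the start, and H2-Aa the X2 letters at 74. Of 32851 promoter windows of this length, 7.23% held TGATTGG, 9.93% TAGNAAC, 1.55% TGACGTCA and 0.764% both TGATTGG and TAGNAAC. The share with both TGATTGG and TGACGTCA, as in H2-Aa, was not counted. Promoter windows were given for 6 of the 10 members, and the windows of H2-DMa, Cd80 and Flt3 held none of the 3 motifs, which says only that these letters are not in those windows. The shorter core ATTGG, found in 33.8% of all windows, was present once in the more downstream of both H2-DMa windows, 198 bases before that start.

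Some facts of the arrays touch every result. The authors' processed table holds the same signals as the scanner output, but with 2 samples swapped, saline replicate 1 and rhTM replicate 2, and neither source settles which assignment is right. Values below follow the scanner output, and values by the table's assignment are given as such. By the scanner output, saline replicate 1 and rhTM replicate 3 shared slide 2 and the other four arrays slide 1. By the table, both arrays of slide 2 are rhTM arrays (replicates 2 and 3). The spike-in slope was 0.826 on the array scanned as saline replicate 1 and 1.07 to 1.09 on the others. Signals are given as times the 75th percentile of the array, which lay between 675 and 850 intensity units, and fold changes as log2 of rhTM over saline from limma, with standard errors. The level of 1 probe is not comparable with that of another.

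Across the 10 members no difference between rhTM-treated and saline-treated lungs passed the test. By limma, with adjustment over all genes, 0 of 10 members were called, where the share called among all 16362 genes was also 0%. At an unadjusted p under 0.05 in limma there were 0 of 10 members, against 1.86% of all genes. The groups did not overlap for 0 of 10 members, against 5.52% of all genes. By the authors' table the same counts were 0 of 10 each, against 0%, 14% and 21.7% of 16312 genes. Mean log2 signals were higher with rhTM for 7 of 10 members, against 50.7% of all genes, and for 7 of 10 by the table, against 46%. The median log2 fold change of the members was 0.097, or 0.068 by the table. Over single arrays left out it ran from -0.034, without rhTM replicate 3, to 0.17, without saline replicate 2, and on slide 1 alone it was -0.016. In whole lung, fewer cells of a type and less RNA per cell cannot be told apart.

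**Figure D1:**
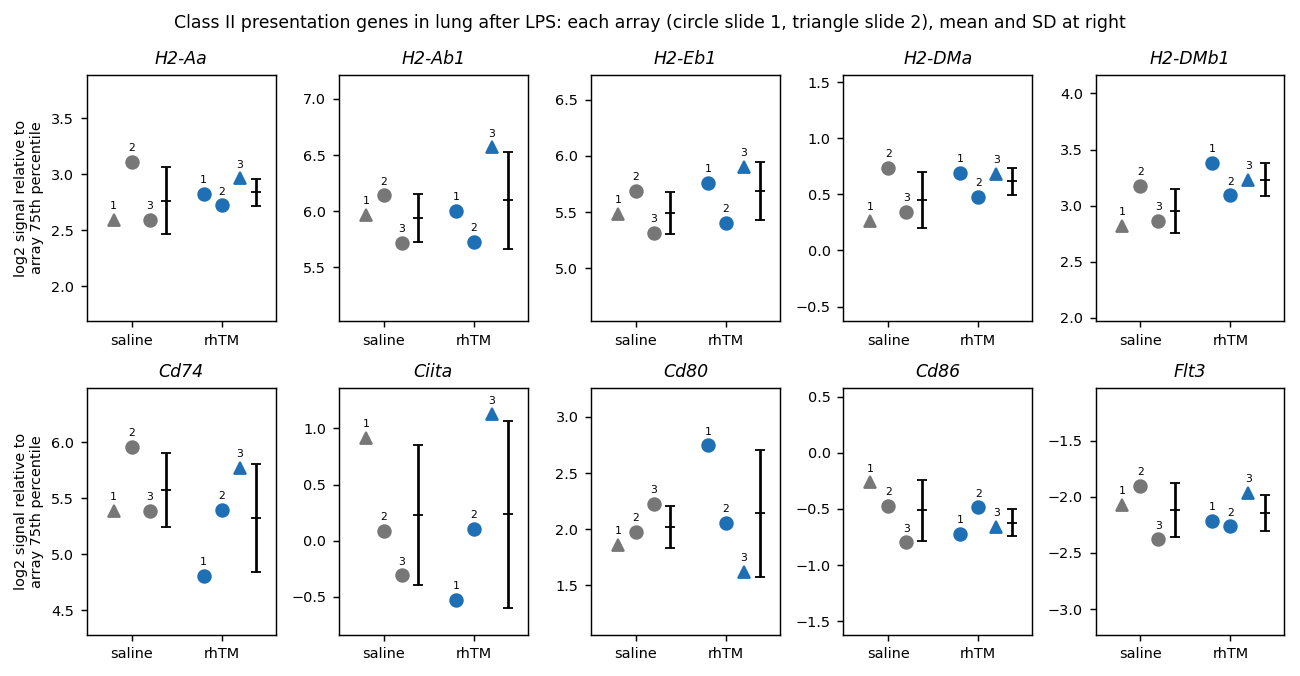
Signal of each member on each array (log2, relative to the 75th percentile of the array; every panel spans the same range of log2 units) in saline (grey) and rhTM (blue) lungs, with the replicate number above each point, circles for slide 1, triangles for slide 2, and the mean with SD at the right of each group (n = 3). The groups overlap in all 10 panels, and the widest spread is that of Ciita, whose slide 2 arrays are the highest.

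The classical chains form the peptide groove. H2-Aa encodes the alpha chain of the A molecule, and its signal was 6.03, 8.62 and 6.04 in saline replicates 1 to 3 and 7.09, 6.59 and 7.79 in rhTM replicates 1 to 3. The highest array was a saline array, while both other saline arrays were the lowest of the 6, so the groups overlapped. The log2 fold change was 0.072 ± 0.18 (limma, adjusted p = 0.9999; exact permutation test, two-sided p = 0.8), with a 95% interval from -0.35 to 0.49, and -0.014 by the table. With 1 array left out at a time it ran from -0.014, without saline replicate 1, to 0.24, without saline replicate 2.

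H2-Ab1 encodes the beta chain that pairs with H2-Aa. Its signal was 62.4, 70.5 and 52.6 in saline lungs and 64.1, 52.8 and 94.8 in rhTM lungs. rhTM replicate 3 stood above the other five arrays, which mixed the groups. Between the groups the log2 fold change was 0.16 ± 0.24 (limma, adjusted p = 0.9999; exact permutation test, two-sided p = 0.6) and 0.32 by the table. With 1 array left out at a time it ran from -0.077, without rhTM replicate 3, to 0.34, without rhTM replicate 2. The 4 probes of H2-Ab1 gave log2 fold changes between 0.078 and 0.16, and by the table between 0.26 and 0.40.

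H2-Eb1, the beta chain of the E molecule, gave 44.6, 51.5 and 39.8 in saline lungs and 54.1, 42.4 and 59.8 in rhTM lungs. rhTM replicates 3 and 1 were the highest arrays, and rhTM replicate 2 lay among the saline arrays. The log2 fold change was 0.20 ± 0.17 (limma, adjusted p = 0.9999; exact permutation test, two-sided p = 0.4), with a 95% interval from -0.22 to 0.61, and 0.24 by the table. No array left out turned its direction by either assignment.

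The DM chains catalyse peptide loading. H2-DMa gave 1.20, 1.67 and 1.27 in saline lungs and 1.61, 1.39 and 1.61 in rhTM lungs. As for H2-Aa, saline replicate 2 was the highest array and the other saline arrays the lowest. The difference on the log2 scale was 0.17 ± 0.16 (limma, adjusted p = 0.9999; exact permutation test, two-sided p = 0.4) and 0.027 by the table. Single arrays left out gave 0.074, without saline replicate 1, to 0.31, without saline replicate 2. By the table they gave -0.061, without saline replicate 3, to 0.17, without rhTM replicate 2.

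H2-DMb1, the beta chain of DM, had the lowest p of the members, which did not pass the test. Its signal was 7.05, 9.02 and 7.28 in saline lungs and 10.4, 8.53 and 9.36 in rhTM lungs. Only saline replicate 2 reached the range of the rhTM arrays. The means were 9.43 ± 0.939 with rhTM and 7.78 ± 1.08 with saline (SD, n = 3). Its log2 fold change of 0.28 ± 0.15 had a 95% interval from -0.072 to 0.63 (limma, unadjusted p = 0.102, adjusted p = 0.9999). The exact permutation test, two-sided, gave p = 0.2, in a design of 3 arrays against 3 that cannot go below 0.1. By the table the log2 fold change was 0.099 (exact permutation test, two-sided p = 0.6). All saline arrays then lay inside the rhTM range, and the lowest array was an rhTM array. H2-DMb2 is a near copy of this gene, and whether the H2-DMb1 probe also binds its transcript was not tested.

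Cd74 encodes the invariant chain. Its signal was 41.8, 62.1 and 41.8 in saline lungs and 28.1, 42.0 and 54.5 in rhTM lungs. rhTM replicate 1 was the lowest array for Cd74 and the highest for H2-DMb1, whereas saline replicate 2 was high for most of these genes. Its log2 fold change was -0.25 ± 0.28 (limma, adjusted p = 0.9999; exact permutation test, two-sided p = 0.6) and -0.26 by the table. Without rhTM replicate 1, the lowest array, it was 0.0041, and without saline replicate 2, the highest, it was -0.062. Left out singly, the other arrays gave -0.29 to -0.47.

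Ciita encodes the transactivator that switches on class II genes. Its signal was 1.88, 1.06 and 0.807 in saline lungs and 0.693, 1.07 and 2.18 in rhTM lungs. The highest array of each group was the one on slide 2, and the lowest array was rhTM replicate 1. The log2 fold change was 0.0036 ± 0.47 (limma, adjusted p = 0.9999; exact permutation test, two-sided p = 1), with a 95% interval from -1.13 to 1.13. It was 0.35 and 0.39 without saline replicate 1 and rhTM replicate 1, 0.068 without rhTM replicate 2, and -0.069, -0.27 and -0.44 without saline replicate 2, saline replicate 3 and rhTM replicate 3. By the table, which places both high arrays in the rhTM group, it was 0.54 ± 0.43 (limma, adjusted p = 0.573). Without rhTM replicate 1 the table gave Ciita a log2 fold change of 1.06 (limma, adjusted p = 0.0322), in a fit that sets slide 2 with rhTM only against slide 1 with saline only, so that slide and treatment cannot be told apart. That fit called 566 of 16312 genes. A second probe of Ciita was at -0.41 and, by the table, at 0.58.

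Cd80 and Cd86 are the ligands on antigen-presenting cells that give CD28 on T cells its co-stimulatory signal. Cd80 was 3.62, 3.94 and 4.66 in saline lungs and 6.70, 4.15 and 3.08 in rhTM lungs. The highest and the lowest array were both rhTM arrays, and the 3 saline arrays lay between them. The log2 fold change of Cd80 was 0.12 ± 0.28 (limma, adjusted p = 0.9999; exact permutation test, two-sided p = 0.8) and -0.0093 by the table. With 1 array left out at a time it ran from -0.18, without rhTM replicate 1, to 0.38, without rhTM replicate 3. Both other probes of Cd80 were at -0.06, and in the table they were higher with rhTM, at 0.52 and 0.11.

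Cd86 was 0.833, 0.720 and 0.575 in saline lungs and 0.608, 0.713 and 0.633 in rhTM lungs. The rhTM arrays lay within the range of the saline arrays. For Cd86 the log2 fold change was -0.11 ± 0.17 (limma, adjusted p = 0.9999; exact permutation test, two-sided p = 0.6) and 0.039 by the table. With 1 array left out at a time it ran from -0.25, without saline replicate 3, to 0.015, without saline replicate 1. Its other probes gave -0.37 and 0.0010, or 0.011 and 0.19 by the table.

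Flt3 is the receptor through which FLT3 ligand supports dendritic cell development. Its signal was 0.237, 0.267 and 0.192 in saline lungs and 0.215, 0.208 and 0.256 in rhTM lungs. Here too the rhTM arrays lay within the saline range. Its log2 fold change was -0.029 ± 0.16 (limma, adjusted p = 0.9999; exact permutation test, two-sided p = 0.9) and 0.097 by the table. With 1 array left out at a time it ran from -0.16, without saline replicate 3, to 0.079, without saline replicate 2.

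**Figure D2:**
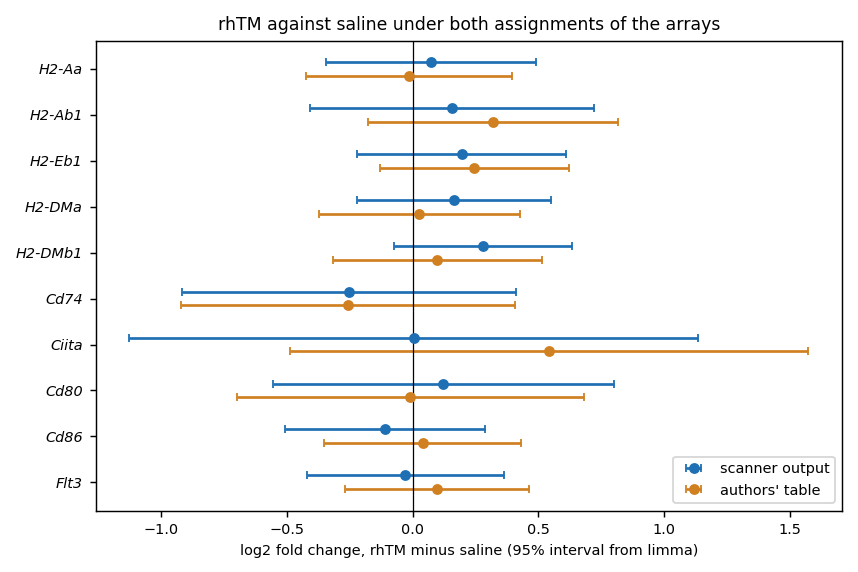
Log2 fold change of each member, rhTM minus saline, with its 95% interval from limma, by the scanner output (blue) and by the authors' table, in which saline replicate 1 and rhTM replicate 2 are exchanged (orange). Every interval includes 0, and the widest is that of Ciita, from -1.13 to 1.13 by the scanner output.

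The members varied to different degrees over the 6 arrays, which differ in mouse and in slide. The SD of the log2 signal over the 6 arrays was 0.66 for Ciita, larger than that of 96.0% of genes tested, 0.39 for Cd74, 0.38 for Cd80 and 0.32 for H2-Ab1. For the other six members it lay between 0.18 and 0.23, beside a median of 0.20 over all genes. Saline replicate 2 was the highest of the 6 arrays for 4 members (H2-Aa, H2-DMa, Cd74, Flt3), and saline replicate 3 the lowest for 4 (H2-Ab1, H2-Eb1, Cd86, Flt3). rhTM replicate 3 was the highest for H2-Ab1, H2-Eb1 and Ciita.

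The SD of ratios was lower among the chain genes than in pairs with Cd74, Ciita or Cd80, 3 genes that also had larger SDs of their own, and the pairs of Flt3 with the chains lay within the range of the chain pairs. For each pair, the difference of the log2 signals was taken on every array, and its SD over the 6 arrays measures how steady the ratio was, whatever the level of either probe. Among the 5 class II and DM chains this SD ran from 0.079 to 0.28 over 10 pairs, with a median of 0.15. In the 24 pairs that hold Cd74, Ciita or Cd80 it ran from 0.30 to 1.02, with a median of 0.51. Flt3 with the 5 chains ran from 0.14 to 0.24, with a median of 0.18, and Cd86 with the 5 chains from 0.29 to 0.38. The steadiest pair was H2-Aa with H2-DMa, at 0.079, where 1 of 16361 other genes had a steadier ratio to H2-DMa and 2 to H2-Aa. H2-DMa with H2-DMb1, the partners of the DM pair, followed at 0.088, with 5 genes steadier against H2-DMa and 8 against H2-DMb1. H2-Ab1 was nearest to H2-Eb1 among the members, at 0.15, with 28 genes steadier against H2-Ab1 and 145 against H2-Eb1. H2-Aa and H2-Ab1, which form 1 molecule, had an SD of 0.23, with 3575 genes steadier against H2-Aa and 485 against H2-Ab1. Flt3 and H2-Aa had an SD of 0.14, with 0.654% of genes steadier against H2-Aa and 2.26% against Flt3. Ranked among all genes, not every chain pair was steady, and some pairs of the more variable members were. Against H2-DMb1, 48.5% of genes were steadier than H2-Ab1, whereas against Ciita 9.97% were steadier than H2-Ab1, and against Cd74 15.2% were steadier than H2-Aa. These are descriptions of 6 arrays that share tissue, slides and scaling, with no test.

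**Figure D3:**
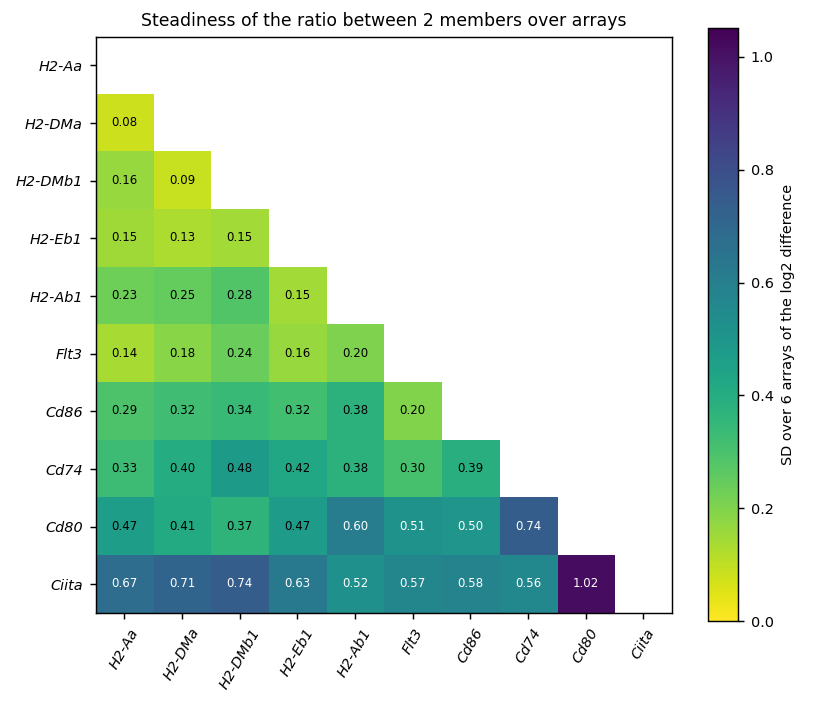
SD over the 6 arrays of the log2 difference between each pair of members (colour and printed value, in log2 units), where a small value means a steady ratio between the genes. The class II and DM chains form the low block at the upper left, their pairs with Flt3 are also low (0.14 to 0.24), and the rows of Cd74, Cd80 and Ciita hold the high values, up to 1.02 for Ciita with Cd80.

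Signals were also compared between the slides, where 0 members passed the test. The mean of slide 2 minus that of slide 1, with treatment in the model, was 1.18 ± 0.23 on the log2 scale for Ciita (limma, adjusted p = 0.105), a larger difference than for 98.7% of genes. Both arrays of slide 2 lay above all arrays of slide 1 for Ciita, and so they did for 13% of all genes. Cd80 went the other way, at -0.51 ± 0.24 (limma, adjusted p = 0.365), with both slide 2 arrays below the rest, as for 19.7% of all genes. For the other members the slide differences lay between -0.10 and 0.37. Adjusted over all genes, 0 of 10 members and 1.42% of genes were called between slides by limma. Marchf1, a ubiquitin ligase that removes class II from the cell surface, was among those called, at 1.20 ± 0.11 (limma, adjusted p = 0.0136), and so was Cd4, the T cell co-receptor for class II, at 2.61 ± 0.16 (limma, adjusted p = 0.0058). Both were chosen after their values were seen. Within slide 1, with 2 arrays a group, limma called 0 genes (294 at an unadjusted p under 0.05), and rhTM minus saline was -0.57 for Cd74, 0.30 for Cd80, 0.22 for H2-DMb1 and between -0.10 and 0.081 for the others. Within slide 2 by the scanner output there was 1 array a group and no test. The chains, DM genes and Cd74 were 0.37 to 0.60 higher with rhTM, and Ciita 0.21 and Flt3 0.11 higher. Cd80 and Cd86 differed by -0.23 and -0.39. The saline array here is the one with the spike-in slope of 0.826. By the table both arrays of slide 2 are rhTM arrays, so this contrast does not exist there.

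**Figure D4:**
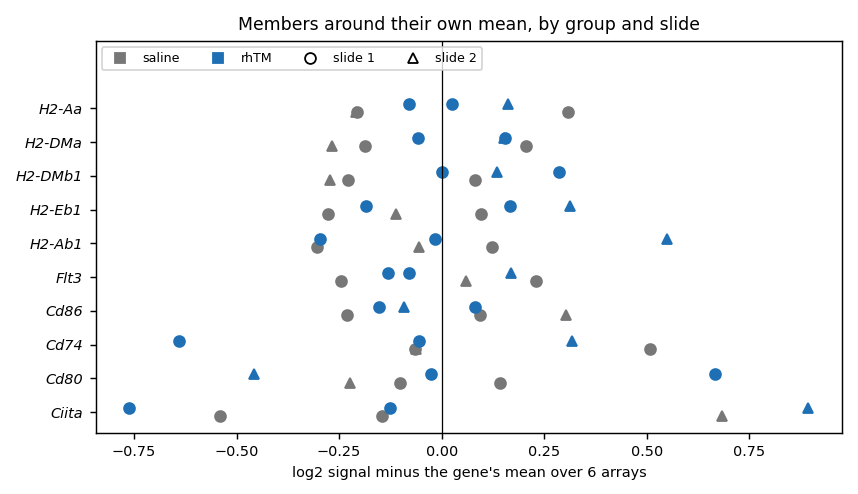
Log2 signal of each member on each array minus the mean of that gene over the 6 arrays (horizontal axis), for saline (grey) and rhTM (blue), with circles for slide 1 and triangles for slide 2. Ciita has its 2 slide 2 arrays at the right and Cd80 at the left, whereas in the chain genes the slide 2 arrays of saline and rhTM lie apart.

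Upstream and downstream of the members, the other genes of the pathway are given as lists, in which 0 genes were called by limma with adjustment over all genes, by either assignment (0% of all genes), and counts of direction are read beside the 50.7% of all genes that were higher. Of the promoter factors (RFX, NF-Y and CREB1), 2 of 7 were higher and the median log2 fold change was -0.13, or 2 of 7 and -0.17 by the table. Rfxank, a subunit of RFX, was at -0.45 ± 0.22 (-0.38 by the table) and Nfya, a subunit of NF-Y, at -0.26 ± 0.25 (-0.50 by the table). For Nfyb, another NF-Y subunit at 0.16 ± 0.12, the rhTM arrays were all above the saline arrays, as they were for 2.95% of all genes, but its groups overlapped by the table. By the scanner output 0 of the 7 lay below in that way, whereas by the table Nfya and Rfxap did, where 12% of all genes did.

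Interferon-γ, a known inducer of Ciita, had 5 of 8 genes of its input list higher, with a median of 0.068, against 4 of 8 and 0.048 by the table. The examples with the largest differences were Spi1, a myeloid transcription factor, at -0.30 ± 0.21 and Ifng itself at 0.17 ± 0.31. By the table Spi1 was at 0.24 and Ifng at 0.46. Of genes that lower class II or its inducers, 5 of 5 were higher, with a median of 0.16. Prdm1, a repressor of Ciita, was at 0.22 ± 0.25 and Socs1, an inhibitor of JAK signalling, at 0.21 ± 0.15. In the table, the count was 4 of these 5 and the median 0.26, with Socs1 at 0.26, Prdm1 at -0.36 and Marchf1, whose values follow the slide, at 0.80.

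Of the endosomal proteases and their helpers, 4 of 8 were higher, with a median of -0.0087, or -0.023 and again 4 of 8 by the table. Lgmn, an asparagine-specific protease, was at 0.16 ± 0.17 (0.073 by the table), and Ifi30, a thiol reductase that opens disulfide bonds of antigens, at -0.14 ± 0.13 (-0.12 by the table). The other class II and DO chains had 2 of 4 genes higher by both assignments, with a median of -0.022, or -0.021 by the table. H2-Ob, a chain of the DO molecule that restrains DM, was at -0.20 ± 0.16 (-0.048 by the table), and H2-Eb2 at -0.057 ± 0.37 (0.0060 by the table). Of the other co-stimulatory genes, 3 of 7 tested were higher, with a median of -0.0012, against 4 of 7 and 0.043 by the table. Icosl, the ligand of ICOS, was at -0.62 ± 0.37 (-0.72 by the table) and Icos at 0.23 ± 0.18 (0.35 by the table). For 3 of the 7, Icos and the PD-1 ligand genes Pdcd1lg2 and Cd274, every rhTM value exceeded the saline values by the table, where 9.68% of all genes did so, and by the scanner output this held for 0 of 7. Cd70 was well above background on 0 of 6 arrays, and Tnfsf4 and Ctla4 on 1 and 2 arrays, so these genes were not tested. For comparison, the class I pathway had 3 of 11 genes higher and a median of -0.025, while the table gave 6 of 11 and 0.059. H2-D1, a class I heavy chain, was at -0.18 ± 0.13 (0.059 by the table) and Erap1, a peptide-trimming enzyme, at -0.16 ± 0.17 (-0.26 by the table).

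**Figure D5:**
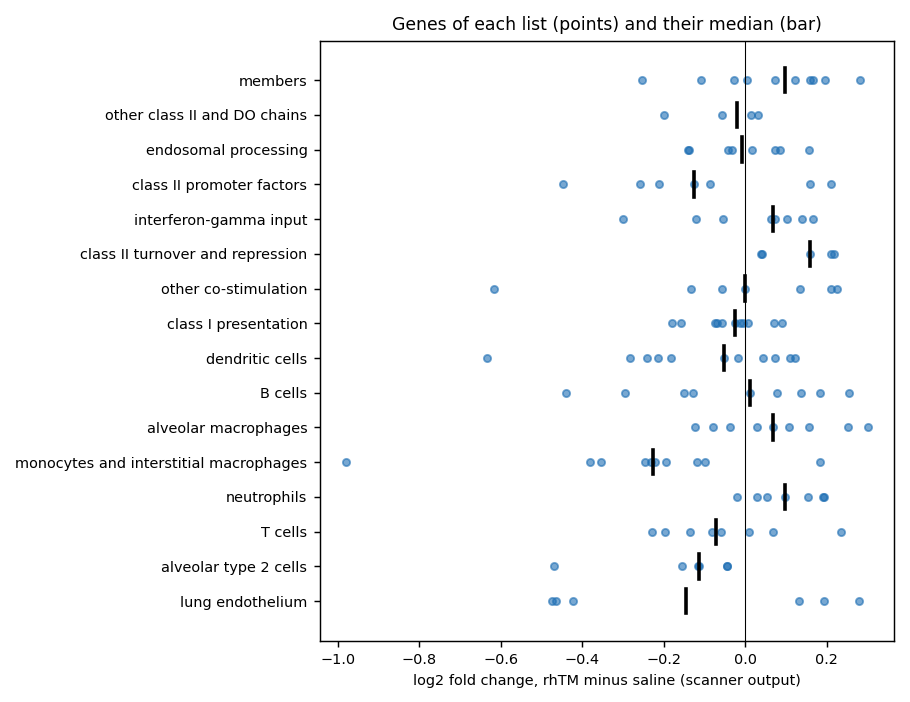
Log2 fold change, rhTM minus saline by the scanner output, of every tested gene (points) of the members, the pathway lists and the cell type marker lists, with the median of each list as a bar. The median of the members is 0.097, those of the lists lie between -0.23 and 0.16, and 0 of the genes shown passed limma's test.

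Markers of cells that carry class II are set beside the members, and their part in the members' values was not tested. Of the dendritic cell markers, 4 of 11 tested were higher with rhTM, and the median was -0.052, or 4 of 11 and -0.18 by the table. Irf4 and Zbtb46, transcription factors of conventional dendritic cells, were at -0.64 ± 0.34 and -0.28 ± 0.27, or -0.65 and -0.39 by the table. Xcr1, a defining receptor of cross-presenting dendritic cells, was well above background on 0 of 6 arrays, and Clec9a and Cd209a on 3 and 1. The summed signal of the list was 248 to 303 in saline lungs and 224 to 305 in rhTM lungs. These ranges overlapped, but by the table they did not, with 224 to 270 in saline and 281 to 305 in rhTM lungs. A single probe, that of Siglech, made up 70.8% to 77.9% of the sum, and without it the ranges overlapped by both assignments.

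Of the B cell markers, 5 of 9 tested were higher and the median was 0.012, whereas the assignment of the table gave 1 of 9 and a median of -0.35. In that assignment, 4 of the 9 also lay lower on all rhTM arrays than on all saline arrays, where 12% of all genes did. Cr2, a complement receptor, was at -0.44 ± 0.44 (-0.91 by the table) and Fcmr, a receptor of IgM, at -0.30 ± 0.30 (-0.72 by the table). The summed signal was 4.52 to 6.70 in saline and 5.82 to 6.17 in rhTM lungs, lowest on saline replicate 1, and by the table, without overlap, 6.17 to 6.70 in saline and 4.52 to 6.05 in rhTM lungs. Cd79b made up 39.1% to 62.1% of this sum, and without it the ranges overlapped by both assignments. Blk was well above background on 2 arrays only. Monocyte and interstitial macrophage markers were higher with rhTM for 1 of 10 genes, with a median of -0.23, and all rhTM arrays lay below all saline arrays for 4 of the 10, where 2.57% of all genes did so. Cx3cr1, a chemokine receptor of monocytes, was at -0.98 ± 0.60 and C1qb, a complement chain of macrophages, at -0.38 ± 0.15 (limma, adjusted p = 0.9999 for both), or -0.62 and -0.29 by the table. Their summed signal was 379 to 412 in saline and 335 to 376 in rhTM lungs, ranges that did not overlap. Ly6c2 alone made up 75.4% to 78.5% of this sum, and without it the ranges overlapped, with 84.9 to 100.1 in saline and 72.1 to 88.7 in rhTM lungs. With the assignment of the table, 3 of 10 were higher with a median of -0.14, 0 of 10 lay below without overlap, and the summed ranges overlapped. Alveolar macrophage markers were higher for 6 of 9 genes and had a median of 0.068, against 2 of 9 and -0.11 by the table. Fabp4 and Krt79 were at 0.30 ± 0.24 and 0.25 ± 0.15, or 0.26 and 0.013 by the table, and the sums ran from 324 to 344 in saline and from 316 to 375 in rhTM lungs.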

How the data were processed

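Agilent mouse arrays of 1 colour measured lung RNA of 3 mice given saline and 3 given rhTM. The authors deposited scanner output of Feature Extraction 10.7.3.1 per the file headers (GEO's processing notes name 9.1), whose processed signal is a linear intensity after background subtraction within each array, without scaling between arrays. The deposited table holds the same intensity values with saline replicate 1 and rhTM replicate 2 exchanged. For these columns, 99.8% of 56605 probes equalled the other sample's scanner values within 0.1%. Methods and labels name different RNA extraction kits.

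Left out were control spots and 398 probes for which an array had outlier-flagged spots alone. Spots of a probe were averaged, and log2 signals were scaled by subtracting the array's 75th percentile. Accessions of 32803 probes matched 1 gene in a RefSeq table of GRCm38.p6. The brightest probe of a gene entered the test if the 3 arrays of either group all had it well above background (36002 to 40503 probes per array were). No member probe was saturated. The number of arrays, 3 a group, limits the precision.

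The test was limma 3.58.1 in R 4.3.3 (lmFit, eBayes), with Benjamini-Hochberg adjusted p-values over all genes called under 0.05. Single genes were also compared by an exact two-sided permutation test. The fits were tested on simulated data, and figures were drawn with matplotlib 3.10.9 in Python 3.11.15. The members, gene lists and tests were chosen with earlier results of these data known. All members are named, and 1 gene of the interferon-γ list is not reported here. Each list is given by its counts, its median, the 2 genes of largest absolute log2 fold change among those well above background on all 6 arrays, and its genes near background. Marker lists of neutrophils, T cells, alveolar type 2 cells and endothelium are given in the closing section. The summed signals without the brightest probe, the comparison of slides and the SD of log2 differences between genes were added after the data were seen. Protein sequences and promoter windows of H2-Ab1, Cd74, Ciita and Cd86 were not used here.

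Alternatives were the authors' table, normexp (offset 50) on median spot signals, scaling by quantiles or by the 75th percentile over probes detected everywhere, filters on dim probes, the slide and the replicate number as blocks, slide 1 alone, the mean of a gene's probes, single arrays or both exchanged arrays left out, and the methods' t-test.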

Additional observations from a re-analysis of the deposited data

How the results depend on the processing

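Counts called were 0 genes and 0 members by limma under every alternative run except 2 fits of the authors' table. Blocked by slide, the table called 432 genes (187 higher, 245 lower) and 0 members, in a fit that compares rhTM replicate 1 with the saline arrays. There Cd80 was at 0.66 (adjusted p = 0.0728) and Cd74 at -0.77 (adjusted p = 0.151). Over arrays left out singly, the counts ran from 0 to 566 genes and from 0 to 1 member, the highest by the table without rhTM replicate 1, where Ciita was called. The median log2 fold change of the members ran from -0.034 to 0.17 over arrays left out and was -0.016 on slide 1 alone. The replicate block changed no call and left the median of the members at 0.097, with 376 genes at an unadjusted p under 0.05 against 305. Of the same-numbered arrays, 1 pair of 3 deviated together (r over genes -0.30, 0.44 and -0.45, against -0.33 to 0.64 between other numbers), so the numbers were not taken as pairs. The methods' t-test was also read at the methods' thresholds, a fold of 2 or more or 0.5 or less with unadjusted P under 0.01. There 1 gene passed by the scanner output, and 11 higher and 3 lower passed by the table, with 0 members by either. After adjustment this t-test called 0 genes.

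Directions of members turned as follows, none of them past the threshold, and the cause was not tested. Ciita was at -0.024 after normexp, -0.020 when scaled over probes detected everywhere, -0.49 by the table blocked by slide, -0.10 on slide 1 alone and -0.20 as the mean of its probes. By the table H2-Aa was at -0.014, Cd80 at -0.0093, Cd86 at 0.039 and Flt3 at 0.097. On slide 1 alone H2-Aa was at -0.077, H2-Ab1 at -0.065 and Cd86 at 0.034, and without both exchanged arrays Flt3 was at 0.051. With 1 array left out, by either source, the ranges were -0.12 to 0.24 for H2-Aa, -0.077 to 0.46 for H2-Ab1, 0.088 to 0.36 for H2-Eb1, -0.061 to 0.31 for H2-DMa, -0.020 to 0.39 for H2-DMb1, -0.48 to 0.0041 for Cd74, -0.44 to 1.06 for Ciita, -0.34 to 0.38 for Cd80, -0.25 to 0.13 for Cd86 and -0.16 to 0.24 for Flt3. H2-Eb1 alone kept its direction under every alternative run, of which the filters, both blocks by the scanner output, the t-test and the mean of probes left its value as it was.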

Other observations

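Genes outside the 10 members whose centred log2 values over the 6 arrays lay closest to the mean of H2-Aa, H2-Ab1, H2-Eb1 and Cd74 were Prp2, Penk, Iglon5, 4930513N10Rik, Scamp5, Gm32743, Ranbp6, AA619741, Myoz1 and Slc13a3. Their mean absolute difference from that pattern was 0.041 to 0.076 log2 units, beside a median of 0.24 over 15755 genes compared. Of the members, Flt3 lay at 0.076, level with Slc13a3 at this rounding. The genes that make up the pattern lay at 0.091 (H2-Aa), 0.094 (H2-Eb1), 0.12 (H2-Ab1) and 0.18 (Cd74). H2-DMa lay at 0.13 and H2-DMb1 at 0.19. Cd86, Cd80 and Ciita lay at 0.22, 0.42 and 0.46. The pattern itself was -0.11, 0.26 and -0.21 in saline replicates 1 to 3 and -0.12, -0.15 and 0.33 in rhTM replicates 1 to 3.

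Markers of cells that do not lead class II presentation were also counted. Neutrophil markers were higher with rhTM for 6 of 7 genes, the median log2 fold change being 0.098, or 5 of 7 and 0.23 by the table, and Ngp and Retnlg, granule and secreted proteins of neutrophils, were at 0.19 ± 0.25 and 0.19 ± 0.29, or 0.28 and 0.23 by the table. Their summed signal was 901 to 1065 in saline and 921 to 1161 in rhTM lungs. By the table the ranges were 901 to 1007 and 1055 to 1161, without overlap. For single genes, the groups did not overlap by the table for 21.7%. S100a9 made up 45.4% to 49.8% of the sum. Without it the ranges overlapped by the scanner output, but by the table they did not, at 462 to 531 and 533 to 634. Markers of T cells were higher for 3 of 8 genes, with a median of -0.071, whereas the table gave 6 of 8 and 0.050, and Cd3d, a chain of the T cell receptor complex, was at 0.24 ± 0.29 (0.046 by the table) and Cd8a at -0.23 ± 0.30 (-0.37 by the table). Their summed signal was 28.3 and 25.0 on the slide 2 arrays and 8.86 to 9.69 on the others, and without Cd4 it was 5.41 to 6.47 on all 6 arrays. Markers of alveolar type 2 cells, which also carry class II, were higher for 0 of 6 genes by the scanner output, with a median of -0.12, and for 4 of 6 by the table, with a median of 0.12. Their summed signal was 1445 and 1272 on the slide 2 arrays, both rhTM by the table, and 878 to 1068 on the others. Slc34a2, a phosphate transporter, was at -0.47 ± 0.28 (-0.54 by the table) and Sftpc, surfactant protein C, at -0.16 ± 0.22 (0.25 by the table). Endothelial markers were higher for 3 of 6 genes, with a median of -0.15, or 2 of 6 and -0.18 by the table, and their summed signal was 193 to 197 in saline and 182 to 186 in rhTM lungs, without overlap, whereas by the table, or without Ramp2 alone, the ranges overlapped. Ramp2 was at -0.47 ± 0.24 (-0.36 by the table) and Tek, the angiopoietin receptor, at -0.46 ± 0.29 (-0.67 by the table). By limma, with the scanner output, 0 genes of these lists were called, and at an unadjusted p under 0.05 there were 0.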
